A study of Mus musculus with 12 samples.

Results

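The sarcoglycan genes Sgca, Sgcb, Sgcd and Sgce and the sarcospan gene Sspn were examined in mouse heart muscle by Affymetrix array. Probe sets were taken by their annotation alone, when the platform annotation paired them with 1 gene and that gene was among these 5. These 5 genes stood among 12394 genes with such a probe set. They had 7 probe sets of the 22690 on the array, of which 20393 had 1 gene. Sgcb and Sspn had 2 probe sets each and Sgca, Sgcd and Sgce had 1 each. All 7 passed the filter on dim probe sets, under which 14932 were tested.

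The groups were control hearts and hearts of mdx mice at 8 weeks of age, and control and mdx hearts at 10.5 months, with 3 arrays in each of the 4 groups. The mdx mouse carries a mutation in Dmd, the gene for dystrophin, and is widely used as a model of the Duchenne form of muscular dystrophy. The control animals are called wild type in the series title. Strain, sex, the part of the heart taken and whether each array came from 1 animal or from a pool are not stated in the labels, so p-values measure the spread between these samples, which may be technical. The sample titles and sources call the tissue heart, but a keyword given with them is extraocular muscle.

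Sarcoglycans are single-pass membrane proteins that assemble with one another in the muscle cell membrane and join the dystrophin glycoprotein complex, which links the cytoskeleton through dystrophin and dystroglycan to the matrix outside the cell. In heart and skeletal muscle alpha-, beta- and delta-sarcoglycan belong to the main complex, in which beta and delta are the core pair, and epsilon-sarcoglycan is a homologue of alpha that takes its place in smooth muscle and some other tissues. Sarcospan is a small protein that crosses the membrane several times and binds this complex. In people, mutations in the genes for alpha-, beta- and delta-sarcoglycan cause limb-girdle muscular dystrophies, some with cardiomyopathy, and in skeletal muscle without dystrophin the sarcoglycan proteins are largely lost from the membrane. Arrays measure the transcript and not the protein.

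RefSeq's promoter table for mouse (GRCm38.p6) held 5 starts for 4 of the 5 genes, and Sgce had no entry. The 250 bases before the start are shown for Sgca, the 1 member called in any comparison, and for Sgcb, whose product belongs to the same complex. Capitals mark the letters CANNTG (the E-box, which muscle regulatory factors of the MyoD family bind, read the same on both strands). The windows lie on the minus strand at chr11:94976328-94976577 and chr5:73647738-73647987, and both are written 5′ to 3′ along the gene.
Sgca: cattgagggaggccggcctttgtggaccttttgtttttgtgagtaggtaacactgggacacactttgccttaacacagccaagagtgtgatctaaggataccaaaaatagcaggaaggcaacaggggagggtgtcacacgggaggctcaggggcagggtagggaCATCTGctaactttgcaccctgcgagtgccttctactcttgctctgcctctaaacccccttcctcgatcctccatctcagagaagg
Sgcb: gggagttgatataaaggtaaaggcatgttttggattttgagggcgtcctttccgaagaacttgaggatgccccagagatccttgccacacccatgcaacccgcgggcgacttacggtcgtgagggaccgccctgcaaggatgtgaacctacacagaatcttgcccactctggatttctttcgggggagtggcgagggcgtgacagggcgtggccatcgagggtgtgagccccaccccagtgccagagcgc

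The Sgca window held 1 CANNTG, which began 86 bases before the start, and the Sgcb window held 0. Among the 32841 windows of 250 bases in the table, 66.2% held at least 1. Of the other starts, Sgcd had 2 and the 2 starts of Sspn had 0 and 1, the latter 68 bases before the start. The letters TATAAA, found in 12.4% of all windows on either strand, occurred only in the Sgcb window among the 5, and GGGCGG (32.7%) occurred once each in those of Sgcb and Sgcd. The MEF2 motif (0.509%) and the CArG box (1.47%), searched by their usual consensus, occurred in none of the 5. These matches describe the letters of the windows only.

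Values are scaled signals, for which each array was set to a trimmed mean of 500 units. Differences are on the scale of log2(scaled signal + 32), with the standard error (SE) of a limma fit to all 12 arrays. A change was called at an adjusted p below 0.05, with Benjamini-Hochberg adjustment over all tested probe sets. Dmd, measured as a check of genotype, was at 159 to 279 on the mdx arrays and 607 to 780 on the control arrays at 8 weeks, and at 195 to 286 and 796 to 839 at 10.5 months. Signals spread more widely on 4 arrays than on the other 8, with a 99th percentile of deposited signal above 40000. These were control replicate 2 and mdx replicates 1 and 2 at 8 weeks and mdx replicate 3 at 10.5 months, and they are called arrays of wide signal range. The ratio of 3′ to 5′ actin control probe sets, which rises as RNA degrades, was 1.44 on mdx replicate 3 at 10.5 months and 1.29 on mdx replicate 1 at 8 weeks, against 1.05 to 1.23 on the others. For Gapdh the same ratio was 0.973 on mdx replicate 1 at 8 weeks. On mdx replicate 3 at 10.5 months it was 0.796, within the 0.747 to 0.845 of the others.

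Sgca, the gene for alpha-sarcoglycan, was the only member called with age in mdx heart. Sgce had a larger difference in the limma fit that did not pass (0.61 ± 0.20 SE, adjusted p = 0.0639). Sgca (probe set 1422654_at) gave signals of 1992, 2331 and 2256 on the 8-week mdx arrays, against 2899, 3386 and 3237 on those of 10.5 months. The 2 ages did not overlap, and every older mdx array stood above every young one. Sgca rose 1.44-fold with age (log2 0.53 ± 0.15 SE, 95% interval 0.21 to 0.84, adjusted p = 0.0363). It was the only one of the 7 probe sets called in this comparison, a share of 14.3%, while 11.4% of all tested probe sets were called and 5.45% were called higher, so the count of members lay near the background. In whole tissue, fewer cells of a type and less RNA per cell cannot be told apart.

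In control hearts the ages were not set apart for Sgca. The signals were 3465, 3143 and 2743 at 8 weeks and 2912, 2737 and 3274 at 10.5 months, and they overlapped (log2 -0.06 ± 0.15, interval -0.38 to 0.25, adjusted p = 0.904). Young mdx hearts were the group that stood apart. Their highest Sgca signal, 2331, was below the lowest of the other 9 arrays, 2737. Young mdx hearts lay below all others in this way for 3.89% of all tested probe sets. That share is for this group and direction only, and shares for other groups or directions are not given. Against controls of the same age the difference at 8 weeks was -0.50 ± 0.15, or 1.41-fold less (interval -0.81 to -0.18, unadjusted p = 0.00464), and it did not pass over all probe sets (adjusted p = 0.10). At 10.5 months the mdx signals overlapped with the controls (0.09 ± 0.15, interval -0.22 to 0.41, adjusted p = 0.914). The test of the difference between the ages in the mdx effect gave 0.59 ± 0.21 (interval 0.14 to 1.04, unadjusted p = 0.0133, adjusted p = 0.273), so the mdx effect on Sgca was not shown to differ between the ages.

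**Figure D1:**
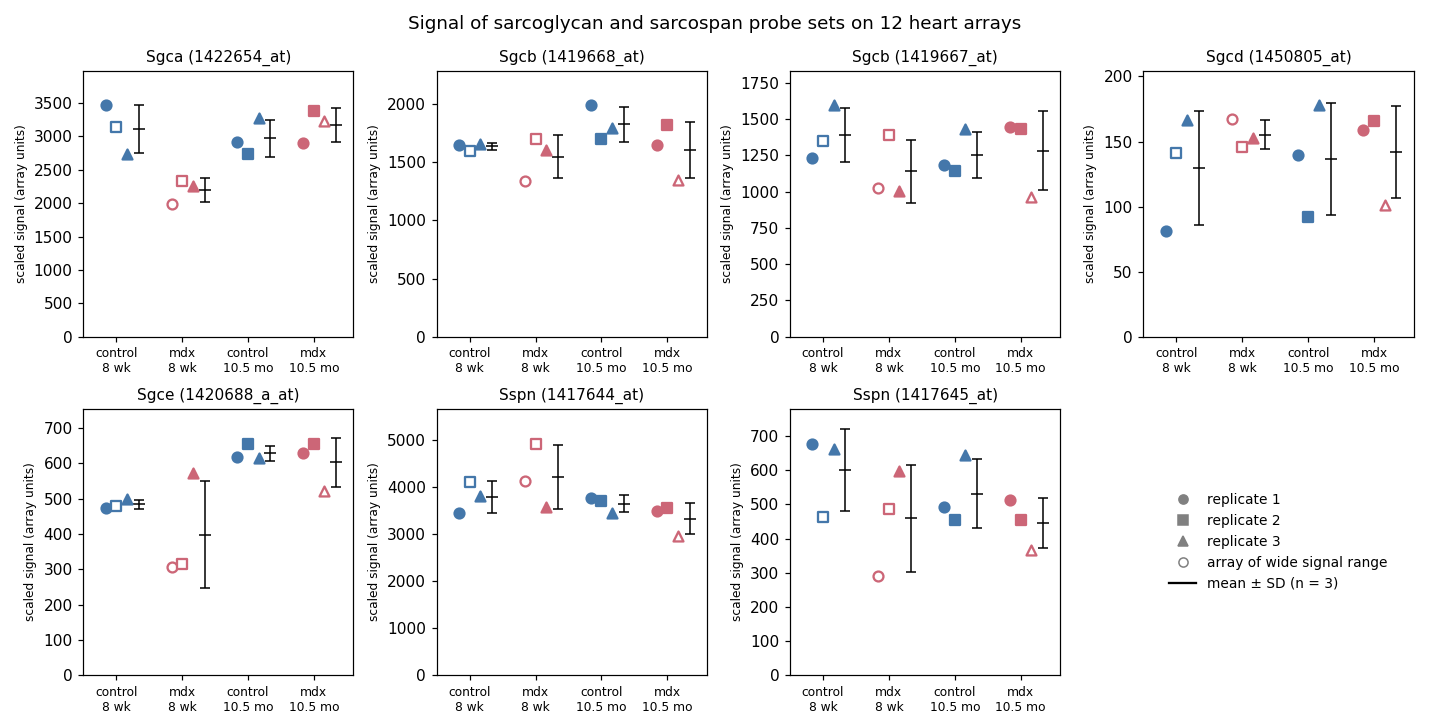
Scaled signal in array units (vertical axes, from 0) of the 7 sarcoglycan and sarcospan probe sets on each of 12 arrays by group, with the mean ± SD of 3 arrays beside the points and open symbols for the 4 arrays of wide signal range. Sgca in 8-week mdx hearts (1992 to 2331) lies below all other arrays, and Sgce in the same group splits into 306 and 315 on open symbols and 574 on the closed one.

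The order of the Sgca means was 3174 ± 250 (SD, n = 3) in mdx hearts at 10.5 months, 3117 ± 362 in control hearts at 8 weeks, 2974 ± 274 in control hearts at 10.5 months and 2193 ± 178 in mdx hearts at 8 weeks. The first 3 groups overlapped with their neighbours and differed by less than the larger SD of each pair. The step from the third group to the last, 781 units, was larger than the SD of either. The sign of the Sgca difference between mdx and control at each age, and of its rise with age in mdx, was the same in all 25 alternatives run, among them the fit with the signal range as a block (-0.50 at 8 weeks and 0.53 for age in mdx, adjusted p = 0.0397 for the latter).

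The call for Sgca was less firm than its sign. It held in 15 of the 25 alternatives. Over all 25 the rise with age ran from 0.46 to 0.63 and the adjusted p from 0.0191 to 0.200. Among the 12 fits that each left out 1 array it was lost in 6, without mdx replicate 1 or 2 at 8 weeks (adjusted p = 0.092 and 0.0519), without control replicate 1 or 2 at 10.5 months (0.0548 and 0.0515) and without mdx replicate 2 or 3 at 10.5 months (0.121 and 0.0859). The value itself stayed between 0.46 and 0.59 in these fits. Without the 4 arrays of wide signal range it was 0.47 (adjusted p = 0.200), with 1 mdx array left at 8 weeks that is assumed to vary like the other groups.

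**Figure D2:**
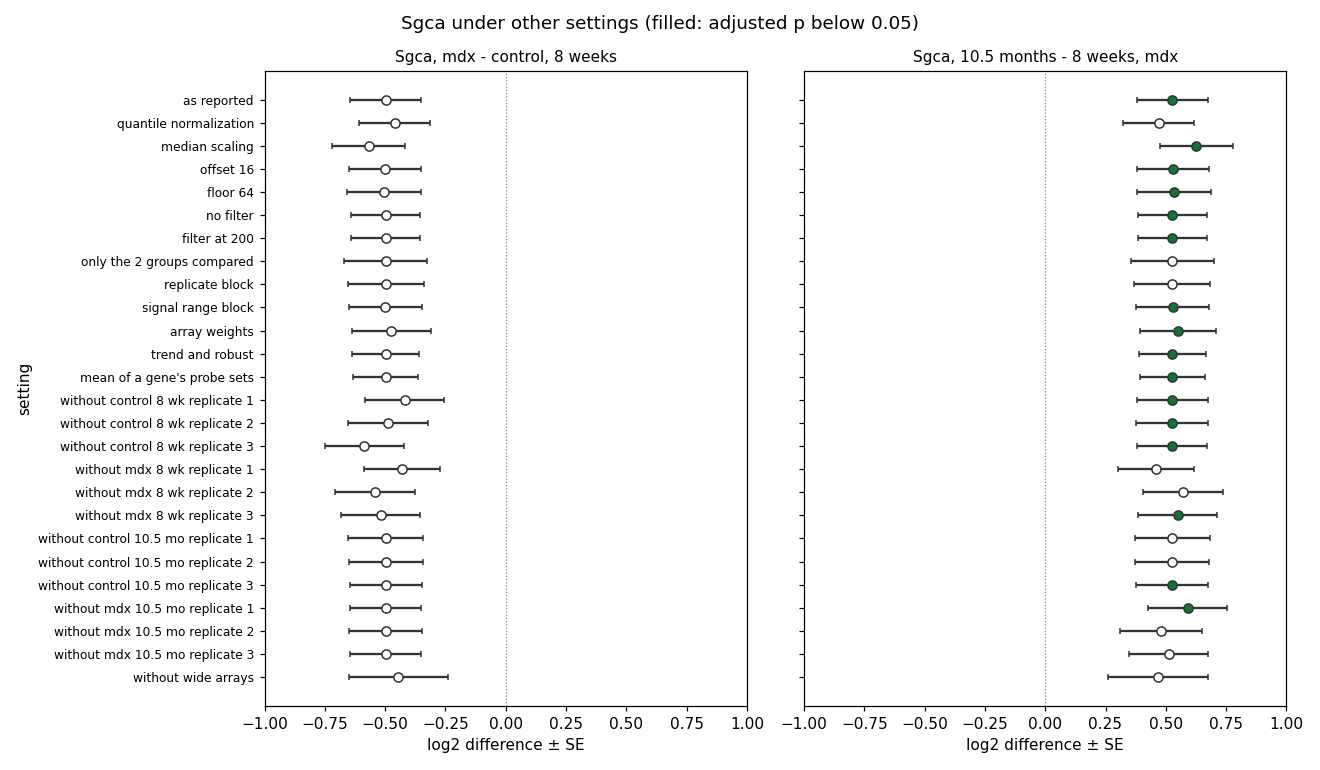
Log2 difference of Sgca ± SE (horizontal axes) in mdx against control hearts at 8 weeks (left) and in mdx hearts at 10.5 months against 8 weeks (right), as reported and under each of 25 other settings, with filled points where the adjusted p was below 0.05. All values on the left lie between -0.59 and -0.42 with none filled, and all on the right between 0.46 and 0.63 with some open.

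Epsilon-sarcoglycan, the homologue of alpha, split the 8-week mdx arrays by signal range. Sgce (1420688_a_at) was at 306 and 315 on the 2 wide arrays and at 574 on the third, while controls were at a narrow 474, 478 and 499, of which the second array was also wide. The third mdx array was thus the highest of the 6 and the other 2 were the lowest. The difference of -0.32 ± 0.20 (interval -0.75 to 0.12) did not pass (adjusted p = 0.435). It was -0.19 with the signal range as a block, -0.59 without mdx replicate 3 (adjusted p = 0.0665) and 0.22 without the 4 wide arrays (adjusted p = 0.451). The part of the signal range in this difference was otherwise not tested.

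Sgce signals of older control hearts were 617, 654 and 616, and those of older mdx hearts were 630, 656 and 523. The lowest value was on the mdx array of wide signal range, and the groups overlapped (-0.06 ± 0.20, interval -0.50 to 0.37, adjusted p = 0.960). In controls all 3 older arrays were above all 3 young ones, with a difference of 0.36 ± 0.20 (interval -0.07 to 0.79, adjusted p = 0.510). In mdx hearts the difference with age was 0.61 ± 0.20, larger in size than that of Sgca but with more spread (interval 0.18 to 1.04, unadjusted p = 0.00916, adjusted p = 0.0639), and the ages overlapped. It reached the threshold in 5 of 25 alternatives, with adjusted p from 0.00608 without mdx replicate 3 at 8 weeks to 0.552 without the wide arrays, where the value was 0.16. In the order of the means, 629 ± 21.6 in older controls and 603 ± 70.4 in older mdx hearts overlapped, as did 484 ± 13.3 in young controls and 398 ± 152 in young mdx hearts, while the lowest older mdx array (523) lay above the highest young control array (499).

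Beta-sarcoglycan, a core subunit of the complex, was read by 2 probe sets, and neither was called in any of the 6 comparisons. The brighter one (1419668_at) read 1648, 1597 and 1652 on the 8-week control arrays, against 1337, 1699 and 1603 for mdx (-0.08 ± 0.15, interval -0.41 to 0.25, adjusted p = 0.818). For older animals, controls were at 1984, 1693 and 1790 and mdx hearts at 1648, 1821 and 1341 (-0.19 ± 0.15, interval -0.52 to 0.14, adjusted p = 0.828). Its lowest signals on all 12 arrays were on mdx replicate 1 at 8 weeks and mdx replicate 3 at 10.5 months. These arrays had the highest 3′ to 5′ actin ratios, though only the first also had a high Gapdh ratio. Both were also of wide signal range, so these traits cannot be told apart, and their part in the signals was not tested. All 3 older control arrays were above the 3 young ones for this probe set (0.15 ± 0.15, adjusted p = 0.732).

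The dimmer Sgcb probe set (1419667_at) ranged from 1228 to 1593 in controls and from 1004 to 1391 in mdx hearts at 8 weeks (-0.28 ± 0.19, interval -0.70 to 0.13, adjusted p = 0.474). For older hearts the ranges were 1142 to 1430 and 966 to 1444 (0.02 ± 0.19, interval -0.40 to 0.44, adjusted p = 0.988). Control hearts at the 2 ages differed by -0.15 ± 0.19 for it (adjusted p = 0.807), of opposite sign to the brighter probe set. Over the 12 arrays the log2 signals of the 2 probe sets correlated with r = 0.55.

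Delta-sarcoglycan, the other core subunit, whose loss causes the cardiomyopathy of a well-known hamster strain, was read by a dim probe set (1450805_at), with group means of 130 to 155 units beside a filter at a mean of 100. Young control arrays read 81.5, 141 and 167 for Sgcd, and young mdx arrays 168, 146 and 153. The older control arrays read 140, 92.0 and 178, and the older mdx arrays 158, 166 and 101. The groups overlapped at each age, and the spread within the control groups was wide, with SDs of 33.7% and 31.5% of the mean. The differences were 0.25 ± 0.24 at 8 weeks (interval -0.27 to 0.77, adjusted p = 0.631) and 0.06 ± 0.24 at 10.5 months (interval -0.46 to 0.57, adjusted p = 0.972). The 8-week value ran from 0.01 without control replicate 1 to 0.42 without control replicate 3. With an offset of 32 units these understate a change at such low signal.

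Sarcospan was read by 2 probe sets that did not move together. For Sspn the brighter one (1417644_at) read 3439, 4099 and 3804 on young control arrays, against 4123, 4912 and 3576 for young mdx, where the highest array of each group was one of wide signal range (0.14 ± 0.15, interval -0.19 to 0.48, adjusted p = 0.670). Older control arrays read 3768, 3704 and 3434, against 3478, 3541 and 2943 for older mdx (-0.13 ± 0.15, interval -0.46 to 0.20, adjusted p = 0.880). In mdx hearts all 3 older arrays were below all 3 young ones, with a difference of -0.33 ± 0.15 that did not pass (interval -0.66 to 0.00, adjusted p = 0.167) and was -0.03 without the wide arrays. The 8-week difference ran from 0.03 without mdx replicate 2 to 0.25 without mdx replicate 3. In controls the difference with age was -0.05 ± 0.15 (adjusted p = 0.924).

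The dimmer Sspn probe set (1417645_at) was at 678, 464 and 664 on young control arrays, while young mdx hearts had 290, 488 and 599 (-0.40 ± 0.24, interval -0.93 to 0.12, adjusted p = 0.414), with the lowest array of each group one of wide signal range. Among older hearts, controls had 492, 456 and 646, while mdx hearts had 514, 455 and 367 (-0.24 ± 0.24, interval -0.76 to 0.29, adjusted p = 0.867), and the lowest was again the wide one. The 8-week difference was -0.24 with the signal range as a block and -0.16 without the wide arrays, and it ran from -0.61 without mdx replicate 3 to -0.13 without mdx replicate 1. Over the 12 arrays the 2 Sspn probe sets correlated with r = -0.12, and at 8 weeks their differences between mdx and control had opposite signs, so that the mean of the 2 gave -0.13 where the brighter one alone gave 0.14.

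Counted over the 7 probe sets, limma called 0 between mdx and control hearts at 8 weeks, where 2.3% of all tested probe sets were called. At an unadjusted p below 0.05 it was 1 (Sgca), or 14.3%, against 17.8% of all. The groups did not overlap for that 1 probe set, against 19.6% of all. The median difference was -0.28 over the 7 probe sets and -0.01 over all tested, with 2 positive and 5 negative. At 10.5 months limma called 0 of 7 (0.0469% of all), 0 had an unadjusted p below 0.05 (7.37% of all), and 0 had groups without overlap (18.1% of all). There the median was -0.06 against -0.03, with 3 positive and 4 negative.

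For the mean of both ages limma called 0 of 7 (0.201% of all) with 0 at an unadjusted p below 0.05 (13.6% of all), and the nearest was Sgca (-0.20 ± 0.10, adjusted p = 0.405). For the difference between the ages in the mdx effect it called 0 of 7 (0.154% of all), with 1 at an unadjusted p below 0.05 (Sgca, 12.1% of all). With age in controls it called 0 of 7 (0.147% of all), 0 had an unadjusted p below 0.05 (12.2% of all), and 2 had groups without overlap, the brighter Sgcb probe set and Sgce (28.6%, against 22.7% of all). With age in mdx hearts 2 had an unadjusted p below 0.05, Sgca and Sgce (28.6%, against 30.2% of all), and 2 had groups without overlap, Sgca upward and the brighter Sspn probe set downward (28.6%, against 30.2% of all). These comparisons share arrays, since the 8-week mdx arrays enter both the mdx effect at 8 weeks and the age effect in mdx.

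**Figure D3:**
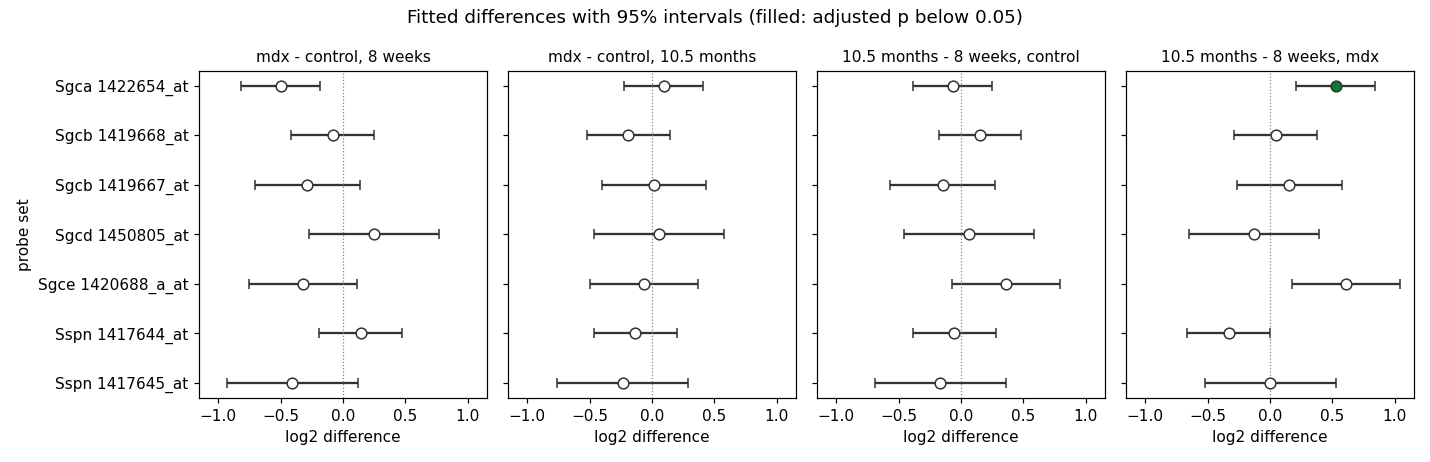
Log2 difference with its 95% interval (horizontal axes) of the 7 probe sets in 4 comparisons, namely mdx against control at each age and 10.5 months against 8 weeks in each genotype, with filled points where the adjusted p was below 0.05. The only filled point is Sgca with age in mdx hearts (0.53), and its interval at 8 weeks (-0.81 to -0.18) also leaves out 0.

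The members varied together only in part. Across the 12 arrays, which share their scaling and groups, Sgca correlated with Sgce at r = 0.60 and with the brighter Sspn probe set at r = -0.58. After the group means were taken off, these were 0.06 and -0.17, while the dimmer Sgcb probe set correlated at 0.67 with Sgcd and at 0.67 with the brighter Sspn probe set. By likeness of pattern over the 12 arrays, among the brightest probe sets of 8716 genes compared, the nearest to Sgca were Deptor, the gene for an inhibitor of the kinase mTOR (r = 0.96), and Smim7 (0.93). Nearest to Sgce were Tex2 (0.96) and Ccdc127 (0.95), and nearest to the brighter Sspn probe set were Col18a1, a collagen gene of basement membranes (0.93), and Grb10, an adaptor in insulin signalling (0.91). For the brighter Sgcb probe set they were Ckap5, which acts on microtubules (0.91), and Efr3a (0.91), and for Sgcd Cfap298 (0.80) and Xpo4, a nuclear transport receptor (0.79). They were picked as the highest of all genes compared and are descriptions only.

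Among partners of the sarcoglycans, 25 other genes of the dystrophin glycoprotein complex and its anchors were listed, of which 19 had a tested probe set. At 8 weeks Dmd was the only 1 called (-1.42 ± 0.20, adjusted p = 0.00596), where 0.911% of all tested probe sets fell, with 0 of the list higher and a median of -0.06. Outside the threshold, the syntrophin gene Sntb1, for an adaptor that binds dystrophin, was at 0.97 ± 0.27 (adjusted p = 0.0786). It was called in 1 of 24 alternatives, blocked by signal range (1.16), with adjusted p from 0.0191 to 0.231, and without control replicate 2 it was 0.61. Also outside it, Cav3, the caveolin gene of muscle, was at -0.45 ± 0.18 (adjusted p = 0.212). At 10.5 months Dmd was again the only 1 called (-1.63 ± 0.20, adjusted p = 0.0120), where 0.0335% of all fell, with a median of -0.14 over the list against -0.03 over all tested. The Dmd call at 10.5 months was lost without control replicate 1 or 2 or mdx replicate 3 of that age (adjusted p = 0.055, 0.0884 and 0.0738), with values from -1.72 to -1.48. For the mean of both ages it was again Dmd alone (-1.53 ± 0.14, adjusted p = 4.57e-04), and for the difference between the ages limma called 0 of the 19, with Cav3 nearest (0.84 ± 0.26, adjusted p = 0.208).

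With age in mdx hearts 4 of the 19 fell and 0 rose, while 5.97% of all tested probe sets fell. They were Lamb2, for a laminin chain of the basement membrane (-0.78 ± 0.16, adjusted p = 0.0101), Plec, for the linker plectin (-0.97 ± 0.20, adjusted p = 0.0126), Nos1, for the nitric oxide synthase anchored through syntrophin (-0.82 ± 0.18, adjusted p = 0.0140), and Dag1, for dystroglycan, which binds laminin outside and dystrophin inside the membrane (-0.75 ± 0.21, adjusted p = 0.0393). Lamb2 was called under all 25 alternatives, Plec in 23 of 25, Nos1 in 21 of 24 and Dag1 in 11 of 25. Without the 4 wide arrays Dag1 was at -0.16 (adjusted p = 0.625) and Plec at -0.51 (adjusted p = 0.166). Among the 12 fits that left out 1 array, Dag1 ran from -0.97 to -0.60 and was called in 4, losing the call without mdx replicate 1 or 2 at 8 weeks, mdx replicate 2 or 3 at 10.5 months, control replicate 3 at 8 weeks or any 1 control array at 10.5 months. Sgca moved in the opposite direction to these 4 genes with age in mdx hearts, where 9 of the 19 had a positive difference. In controls with age 0 of the 19 were called, with Cav3 nearest (-0.62 ± 0.18, adjusted p = 0.213) and Dag1 at -0.36 ± 0.21. The list's median with age in mdx hearts was -0.01, beside 0.00 for all tested probe sets.

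Of 17 genes for enzymes that build the sugar chain by which dystroglycan binds laminin, 11 had a tested probe set. None was called by limma between mdx and control at either age, for the mean of both ages, for the difference between the ages or with age in controls. With age in mdx hearts 1 of 11 fell (9.09%, beside 5.97% of all tested probe sets), Pomt1, for a mannosyltransferase that starts the chain (-0.84 ± 0.22, adjusted p = 0.0293), and 0 rose. The median was -0.15 over the list and 0.00 over all tested. Pomt1 was called in 18 of 24 alternatives and lost the call without mdx replicate 2 or 3 at 8 weeks or mdx replicate 2 or 3 at 10.5 months, with values from -1.12 to -0.70 over the fits that left out 1 array.

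**Figure D4:**
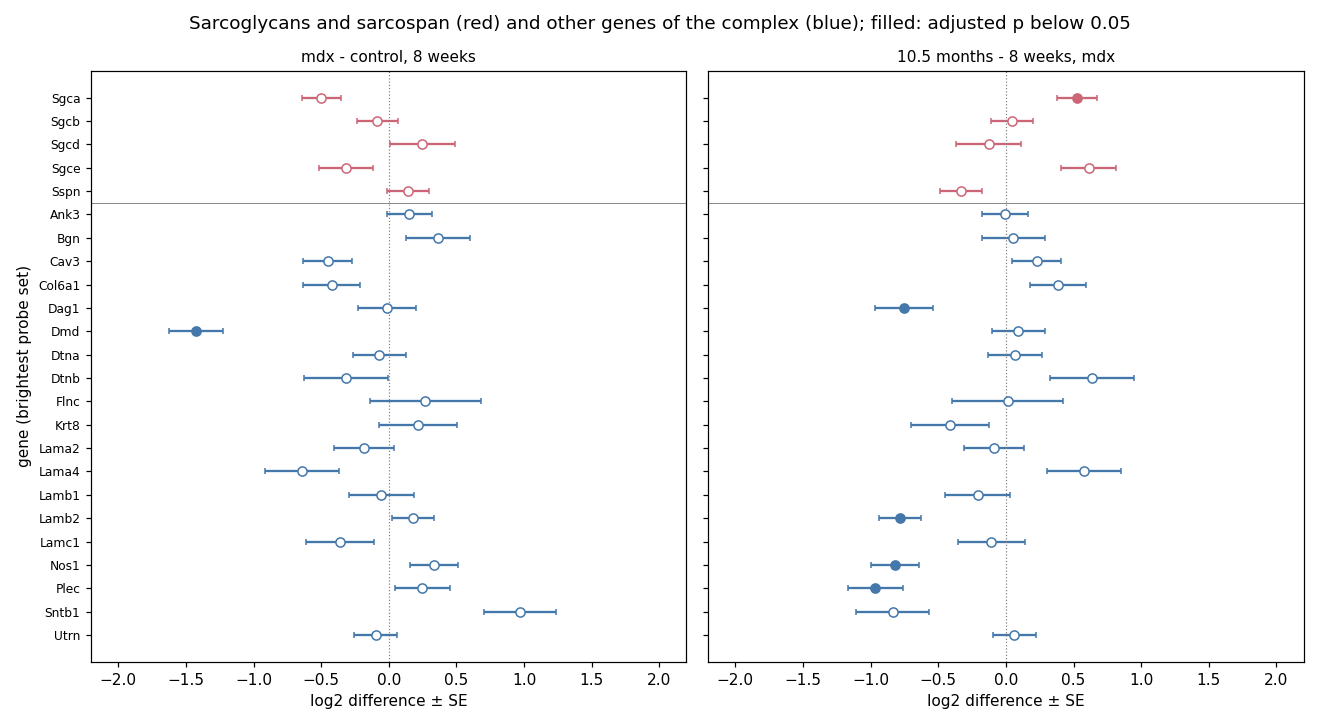
Log2 difference ± SE (horizontal axes) of the brightest probe set of the 5 sarcoglycan and sarcospan genes (red, above the line) and of 19 other genes of the complex (blue), for mdx against control at 8 weeks (left) and for 10.5 months against 8 weeks in mdx hearts (right), filled where the adjusted p was below 0.05. On the left only Dmd (-1.42) is filled, and on the right Sgca (0.53) is filled to the right of 0 and Dag1, Lamb2, Nos1 and Plec to the left.

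The tissue was checked through marker genes. All 10 cardiac myocyte markers were tested, and their summed signal ran from 194188 to 382150 in controls and from 171270 to 530137 in mdx hearts at 8 weeks. In older hearts it ran from 186587 to 228315 in controls and from 217227 to 288747 in mdx. The 4 highest sums, from 288747 to 530137, were on the 4 arrays of wide signal range, and the other 8 arrays ran from 171270 to 239047. At 8 weeks 10 of the 10 markers had a positive difference in mdx, with a median of 0.32 and 0 called, and with age in mdx hearts 0 of 10 had one, with a median of -0.31. The 1 called there was Ryr2, the calcium release channel gene (-0.92 ± 0.21, adjusted p = 0.0178). In both comparisons the median was of opposite sign to Sgca. The wide arrays at 8 weeks were mdx replicates 1 and 2 and control replicate 2. Of the 8-week arrays that were not wide, the mdx array had 171270 and the controls had 194188 and 216801. The part of myocyte content in the Sgca values was not tested. The 6 atrial markers summed to 4509 to 6509 in controls and 12034 to 13125 in mdx hearts at 8 weeks. Most of these sums came from Nppa, with medians of 4635 and 9902. All 6 had a positive difference at that age, with a median of 0.74 and 0 called. At 10.5 months the atrial sums were 5057 to 23272 and 11938 to 18304. Nppa also carried the older sums, with medians of 10540 in controls and 15942 in mdx. Only 1 of the 6 atrial markers had a positive difference there, with a median of -1.27 and 0 called. Medians of Sln were 1220 in controls and 25.5 in mdx, and those of Myl7 were 2216 and 270. Of 11 fast skeletal markers, 2 passed the filter, and the 10 other than Acta1 summed to 582 to 744 and 669 to 805 at 8 weeks, and to 440 to 601 and 526 to 708 at 10.5 months. Group medians of Myh4, a fast skeletal myosin, were 3.6 to 27.5. Acta1, the skeletal actin gene, which heart also expresses, was at 2388 to 2537 in 8-week mdx hearts, 3529 to 7566 in 8-week controls, and 8084 to 9997 in older hearts, so it was also lowest in young mdx hearts (-1.20 ± 0.23 against controls, adjusted p = 0.0251, and 1.82 ± 0.23 with age in mdx, adjusted p = 0.00108).

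Markers of other cell types were set beside these values. In smooth muscle, where Sgce replaces Sgca, the 10 markers summed to 24438 to 31205 in controls and 21511 to 32524 in mdx hearts at 8 weeks, and to 21024 to 23270 and 23916 to 25420 at 10.5 months. Of the 8 that passed the filter, 4 had a positive difference in mdx hearts at 8 weeks, with a median of -0.06. Limma called 2 of the 8 lower there, beside 0.911% of all tested probe sets. They were Acta2, the smooth muscle actin gene (-0.80 ± 0.14, adjusted p = 0.0184, group medians 6631 and 3693), and Smtn, the smoothelin gene (-0.69 ± 0.16, adjusted p = 0.0467, medians 1599 and 955). Unlike Sgca, Acta2 had its lowest median in older controls (3044, against 4661 in older mdx hearts). It also fell with age in controls (-1.16 ± 0.14, adjusted p = 0.00505). Its mdx effect differed between the ages (1.44 ± 0.20, adjusted p = 0.0196). The smooth muscle sum at 8 weeks was carried by Des, with medians of 7639 and 11884, and Rgs5, with 8655 and 10757. The 8 fibroblast markers summed to 16985 to 20249 and 21933 to 24923 at 8 weeks, and to 20234 to 20848 and 22525 to 30697 at 10.5 months, higher on every mdx array than on every control array of the same age. With age in mdx hearts 5 of the 8 had a positive difference, with a median of 0.165. Of these, limma called 3 higher, beside 5.45% of all tested probe sets. They were the matrix genes Lum (1.17 ± 0.19, adjusted p = 0.00432), Dpt (1.05 ± 0.17, adjusted p = 0.00425) and Mfap5 (1.27 ± 0.23, adjusted p = 0.00735). Medians of Col1a1, Col1a2 and Pdgfra went the other way, from 1231 to 1142, from 1881 to 1561 and from 532 to 489. The 4 nerve and Schwann cell markers with a probe set summed to 977 to 1225 in young controls and 1273 to 1347 in young mdx hearts, without overlap, and to 1185 to 1509 and 1123 to 1328 in older hearts. Of the 3 tested, 3 had a positive difference at 8 weeks, with a median of 0.08. With age in mdx 1 of the 3 had one, with a median of -0.63. By limma only Sox10, a Schwann cell factor, was called (0.95 ± 0.21 at 8 weeks, adjusted p = 0.0365, and -0.73 ± 0.21 with age in mdx, adjusted p = 0.0396). Medians of Mal went the other way with age in mdx, from 647 to 815. The 9 endothelial markers summed to 9982 to 11709 and 8527 to 10579 at 8 weeks, and to 8559 to 9560 and 7221 to 9025 at 10.5 months. The 10 macrophage markers summed to 11258 to 13464 and 13242 to 14287 at 8 weeks, and to 9909 to 13708 and 11893 to 19505 at 10.5 months. The 3 adipocyte markers with a probe set summed to 9664 to 14548 and 9325 to 17584 at 8 weeks, and to 9961 to 11383 and 10033 to 14534 at 10.5 months. Fabp4 carried this sum, with 8-week medians of 10522 in controls and 16820 in mdx. Those of Adipoq were 75.8 and 84.5, and those of Retn were 162 and 110. No endothelial, macrophage or adipocyte marker was called by limma in any of the 6 comparisons. The part of cell makeup in the Sgca and Sgce values was not tested.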

How the data were processed

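Total RNA from heart muscle was measured on 12 Affymetrix arrays, with groups and replicate numbers from the sample titles. The authors deposited 1 linear intensity per probe set and array. Scaling by them shows in the 2% trimmed means, which ran from 1500.6 to 1500.9. Standard Affymetrix procedures were followed, per the labels' protocols, and the software is not given in the sources used here. Genes came from the platform annotation, with 20364 symbols matched to current gene tables.

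Signals were brought to a trimmed mean of 500 per array, and log2(signal + 32) was taken. The 64 control probe sets were left out, and a mean signal of at least 100 was required. In R 4.3.3, limma 3.58.1 (lmFit, eBayes, two-sided) was run on all 12 arrays with 1 mean for each group, with 8 residual and 5.2 prior degrees of freedom, tested on simulated data. The 3 arrays per group limit the precision, as does the spread of signal between arrays. The median within-group SD of log2 signal was 0.202 and 0.250 in control and mdx hearts at 8 weeks, and 0.147 and 0.193 at 10.5 months, so the shared spread tends to be too small for the younger and too large for the older hearts.

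The brightest probe set stood for a gene in lists. Named were all members, Dmd, and from each list up to 4 called genes or else the one with the smallest p, plus the 2 genes most like each member. Sntb1, Cav3, the named cell type markers and the control value of Dag1 were added after their values were seen. Members and lists were chosen with earlier results of these data known. Alternatives changed scaling, offset, filter, probe set averaging, arrays in the fit, weights, blocks and the variance model. One, without the arrays of wide signal range, was added after seeing the data.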

Additional observations from a re-analysis of the deposited data

Results flagged for a closer look

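Cav3, the muscle caveolin gene of the complex list, stood out because its mdx arrays lay on opposite sides of the controls at the 2 ages. At 8 weeks the mdx arrays were at 576, 774 and 580, all below the controls at 874, 942 and 837, as for 19.6% of all tested probe sets in either direction. At 10.5 months they were at 674, 634 and 992, all above the controls at 538, 611 and 549, as for 18.1% of all in either direction. These shares are for each age alone, and the share with opposite sides at both ages was not counted. Only the members and some genes of the lists were searched for this pattern. The highest mdx value was on the older array of wide signal range. The limma test of the difference between the ages gave 0.844 (unadjusted p = 0.0056), which did not pass over all probe sets (adjusted p = 0.208, and 0.129 to 0.366 over 24 alternatives).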

How the results depend on the processing

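The count of member probe sets called stayed at 0 under every alternative run in each comparison except age in mdx hearts. There it was 1, and it was 2 (Sgca and Sgce) with median scaling, with array weights and with a trended, robust variance, and 0 with only the 2 groups compared (Sgca adjusted p = 0.107), with the replicate block (Sgca adjusted p = 0.0560) and without the wide arrays. It ran from 0 to 2 when single arrays were left out. After quantile normalization the 1 called was Sgce (adjusted p = 0.0401) and not Sgca (adjusted p = 0.0520). The causes were not tested, apart from the fewer arrays in some fits. Replicate numbers of the titles did not pair the arrays, since deviations of same-numbered arrays from their group means correlated from -0.13 to 0.14 over 18 pairs, 2 of them above 0.1, and in 4 of them an array correlated best with its own number in the other group.

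Uncalled values changed sign in some fits, with adjusted p of at least 0.433 there. Quantile normalization gave Sgce 0.00111 at 10.5 months, the brighter Sspn probe set -0.0507 for the mean of both ages, and the brighter Sgcb and dimmer Sspn probe sets -0.0502 and -0.0162 with age in mdx. Median scaling gave that Sspn mean -0.00919 and the brighter Sgcb probe set 0.00651 for the difference between ages. The signal range block gave Sgce 0.0616 at 10.5 months, the Sspn mean -0.0235, and Sgcb -0.00773 and the dimmer Sspn -0.163 with age in mdx. Array weights gave Sgce 0.00383 at 10.5 months and Sgcd 0.0194 with age in mdx. Averaging the probe sets of a gene gave Sspn -0.131 at 8 weeks, -0.158 for the mean of both ages, -0.0536 for the difference between ages and -0.163 with age in mdx, and Sgcb -0.0865 at 10.5 months, 0.0975 for the difference between ages and 0.00334 with age in controls. Without the wide arrays Sgce was 0.224 at 8 weeks, 0.03 at 10.5 months, 0.127 for the mean of both ages and -0.194 for the difference, the brighter Sspn probe set -0.0165 at 8 weeks, -0.0329 for the mean and 0.00611 with age in controls, and Sgcd 0.0734 and the dimmer Sspn -0.291 with age in mdx. Sgcd was not tested with a filter at 200. With only the 2 groups compared, Dmd at 8 weeks (adjusted p = 0.0663) and every list gene called with age in mdx except Lamb2 lost the call.

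With single arrays left out, these values ran across 0. For the brighter Sgcb probe set the ranges were -0.154 to 0.0153 at 8 weeks, -0.205 to 0.0148 for the difference between ages and -0.0518 to 0.168 with age in mdx, and for the dimmer one -0.0803 to 0.202 at 10.5 months. Sgcd ran from -0.148 to 0.238 at 10.5 months, -0.396 to 0.045 for the difference between ages, -0.173 to 0.268 with age in controls and -0.233 to 0.0538 with age in mdx. Sgce ran from -0.125 to 0.03 at 10.5 months and Sgca from -0.152 to 0.0144 with age in controls. The brighter Sspn probe set ran from -0.0538 to 0.0599 for the mean of both ages and -0.119 to 0.00611 with age in controls, and the dimmer one from -0.108 to 0.378 for the difference between ages and -0.274 to 0.212 with age in mdx.

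Over all probe sets, the number called at 8 weeks (343) ran from 23 with only those 2 groups to 454 with quantile normalization. With age in mdx (1706) it ran from 565 to 2049, at 10.5 months (7) from 1 to 110, for the mean of both ages (30) from 12 to 127, for the difference between ages (23) from 0 to 141 and with age in controls (22) from 7 to 270, the highest with array weights except in the mean of both ages, where it was without the wide arrays, and in mdx, where it was with median scaling. Leaving out control replicate 1 or 3 at 8 weeks gave 95 and 42 calls at 8 weeks.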
